A study of Mus musculus with 6 samples.

Results

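Lipid droplet coat and triglyceride lipolysis genes were examined in mouse liver on Affymetrix whole-transcript arrays, with 1 array per sample and log2 RMA expression as the unit, a background-corrected and normalized intensity per probe set. The set held 10 genes, chosen by symbol: the perilipins Plin2, Plin3, Plin4 and Plin5, the CIDE genes Cidea, Cideb and Cidec, and Pnpla2, G0s2 and Abhd5. A gene was measured where a probe set carried its symbol alone, and 9 of the 10 were found among the 22180 genes tested. Cideb, whose protein acts in the lipidation of very low density lipoprotein, shares its only annotated probe set with another gene and has no value here. G0s2 had 2 probe sets, and the brighter was used.

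The groups were cGK1-KO livers (n = 3, called knockout) and livers labelled wild type (n = 3, called control), all from male C57BL/6N mice aged 2 months. Knockout mice lacked cGMP-dependent protein kinase 1, encoded by Prkg1, and per the series description carried a smooth muscle rescue of the kinase, while the same description calls the other mice controls. The promoter that drives the rescue and the number of animals behind each sample are not given in the sources used here, so p-values measure the spread between samples, which may be technical in part. The submitters placed the study in the context of stellate cell activation, and the comparison asks how liver expression differs where the kinase is missing outside smooth muscle.

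Hepatocytes store triglyceride in lipid droplets, whose surface carries perilipins that shield the core from lipases. CIDE proteins move lipid between touching droplets, so that droplets grow. Stored triglyceride is broken down first by adipose triglyceride lipase, the product of Pnpla2, which the protein of Abhd5 activates and that of G0s2 inhibits. In mouse liver Plin2 and Plin5 are known targets of the fatty acid receptor PPARA, and Cidec is known to be highly expressed in fatty liver.

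No gene of the set passed an adjusted p of 0.05 in limma (Benjamini-Hochberg over the 22180 genes), and neither did any other gene (0% called). Plin5 (log2 difference -1.01), Cidec (-1.22) and Plin2 (-0.63) were lower in the knockout at an unadjusted p under 0.05. That is 3 of 9 measured genes lower and 0 higher at that level, against 5.46% of all genes lower and 5.06% higher. The count lower was 1, Plin5, without knockout replicate 1, without knockout replicate 3 and without control replicate 2, and Pnpla2 was higher at that level without knockout replicate 3. The other 6 genes lay between -0.25 and 0.19. In all, 7 of 9 differences were negative, with a median of -0.15, against 49.8% of all genes and a median of 0.0011. The median was -0.34 without control replicate 2, -0.099 without knockout replicate 3 and -0.091 without control replicate 3. The knockout arrays all lay below the controls in 2 genes, Plin2 and Plin5, and all above in 0, while 9.14% of all genes lay wholly below and 7.61% wholly above. In whole liver RNA, fewer cells of a type and less RNA per cell cannot be told apart.

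**Figure D1:**
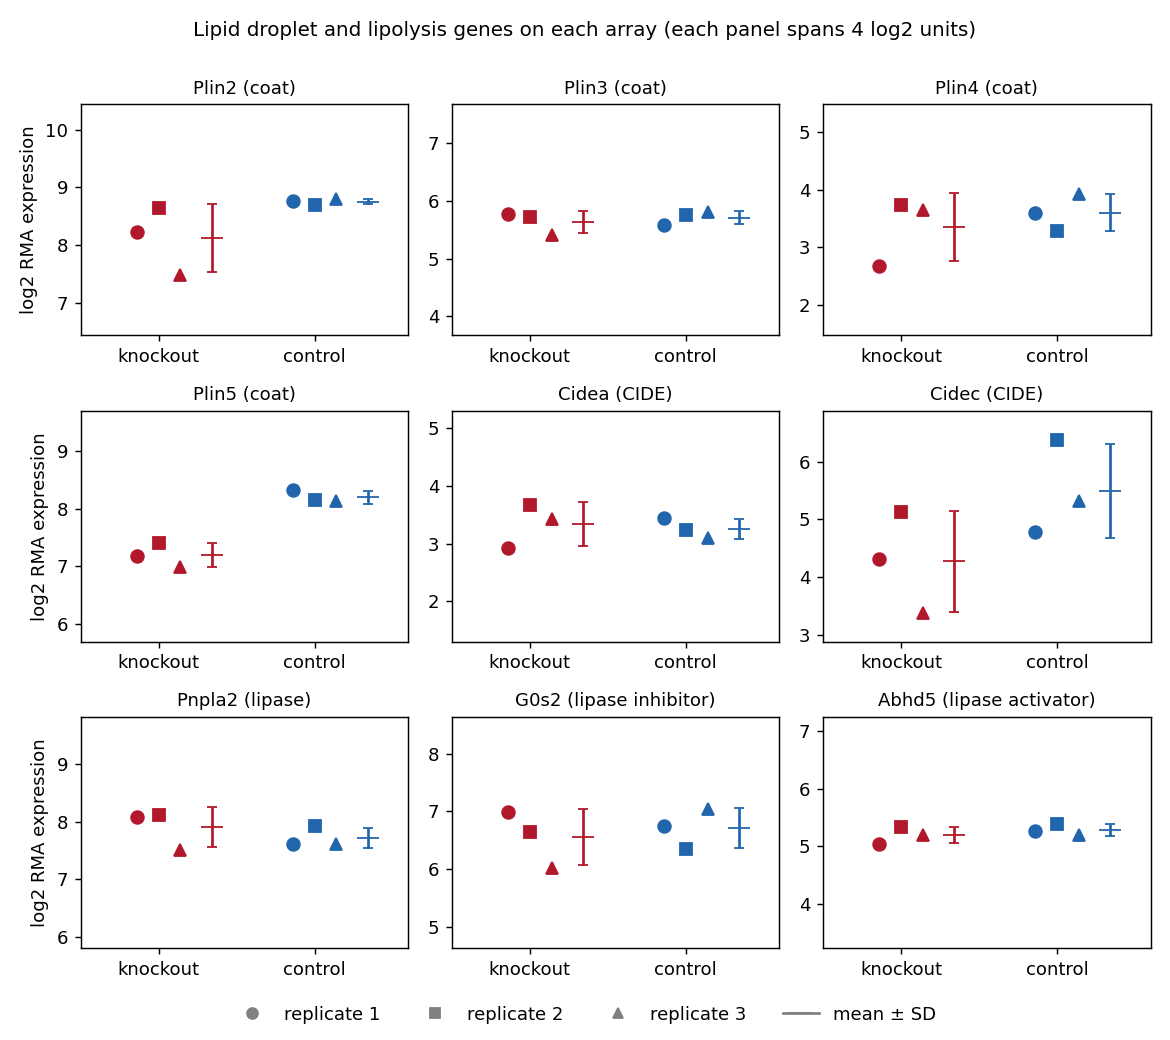
Log2 RMA expression of the 9 measured genes on each array, with knockout (red) left of control (blue), a marker shape for each replicate number and the group mean ± SD (n = 3) beside the points. All panels span the same number of log2 units; the knockout points lie wholly below the control points for Plin5 and Plin2, and overlap them in the other 7 genes.

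Array medians lay between 3.11 and 3.16. The knockout arrays spread more, with a median standard deviation of a gene of 0.193 against 0.146 in the controls. Over all genes knockout replicate 3 correlated more closely with the controls (0.981 to 0.983) than with knockout replicates 1 and 2 (0.978 and 0.979). Prkg1 was dim in both groups, at 3.19 ± 0.14 in knockout and 3.08 ± 0.21 in control livers (SD), with an adjusted p of 0.837 in limma, so it does not check the genotype labels.

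Plin5, whose product tethers droplets to mitochondria and restrains lipolysis in oxidative tissues, had the strongest evidence in the set. Its log2 expression was 7.18, 7.40 and 6.99 in knockout replicates 1 to 3, against 8.33, 8.15 and 8.13 in control replicates 1 to 3. The highest knockout array lay 0.73 log2 units below the lowest control. Means were 7.19 ± 0.21 in knockout and 8.20 ± 0.11 in control livers (SD), a level 2.01-fold lower in the knockout. The log2 difference of -1.01 had a standard error of 0.15 and a 95% interval of -1.34 to -0.68. Its adjusted p of 0.0902 in limma missed the threshold, and the gene ranked 16 of 22180 by p. The call depended on the variance model, since an intensity trend in the variance prior gave an adjusted p of 0.0335.

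Plin2, the main droplet coat protein of hepatocytes, was lower by less and less evenly. Its log2 expression was 8.23, 8.65 and 7.49 in the knockout arrays, against 8.77, 8.70 and 8.79 in the control arrays. The controls were nearly level, spanning 0.0896 log2 units, while the knockout arrays spanned 1.16, and the highest knockout array lay only 0.0532 below the lowest control. The standard deviation was 0.588 in the knockout and 0.0467 in the control group, a 12.6-fold ratio that lay at percentile 98.7 of all genes. The log2 difference was -0.63 (SE 0.25, 95% interval -1.20 to -0.060, limma adjusted p = 0.429), or 1.55-fold lower in the knockout. The size of the difference depended on single knockout arrays. It was -0.31 without knockout replicate 3 and -0.90 without knockout replicate 2.

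Within each array Plin5 was compared with Plin2 to see whether the coats changed unequally. Relative to the control mean, the log2 ratio of Plin2 to Plin5 stood at 0.49, 0.69 and -0.056 in knockout replicates 1 to 3, against -0.11, 0.00034 and 0.11 in the controls. The mean difference of 0.38 gave p = 0.3 in an exact 2-sided permutation test, where 0.1 is the smallest p that 3 against 3 arrays allow. This test could not reach 0.05 with 3 arrays in each group. Without knockout replicate 3 the mean difference was 0.59 (exact permutation p = 0.1, the smallest possible there too). Without knockout replicate 2 it was 0.22 (exact permutation p = 0.5).

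The promoter windows of Plin2 and Plin5 are shown because these are the 2 genes whose groups did not overlap. Each runs from 250 bases before an annotated transcription start to 50 after it, is read 5′ to 3′ along the gene's strand, and comes from RefSeq on GRCm38.p6. Plin5 has 2 annotated starts and 9 of the 10 genes have at least 1 window. Capitals mark the nuclear receptor half-site, AGGTCA on either strand, and the E-box, spelled CACGTG.
Plin2, chr4:86670010-86670309, minus strand: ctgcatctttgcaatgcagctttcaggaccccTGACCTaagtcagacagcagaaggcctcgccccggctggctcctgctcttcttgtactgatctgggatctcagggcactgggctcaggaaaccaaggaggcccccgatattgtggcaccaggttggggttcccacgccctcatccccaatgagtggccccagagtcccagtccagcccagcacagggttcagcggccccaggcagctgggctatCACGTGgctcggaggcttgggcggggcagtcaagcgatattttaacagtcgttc
Plin5, upstream start, chr17:56117499-56117798, minus strand: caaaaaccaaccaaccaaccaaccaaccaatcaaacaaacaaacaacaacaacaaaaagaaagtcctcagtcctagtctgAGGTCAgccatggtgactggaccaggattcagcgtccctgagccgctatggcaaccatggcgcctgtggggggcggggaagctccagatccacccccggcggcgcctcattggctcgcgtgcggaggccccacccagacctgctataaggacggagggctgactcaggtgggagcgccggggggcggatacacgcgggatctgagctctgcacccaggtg
Plin5, downstream start, chr17:56117249-56117548, minus strand: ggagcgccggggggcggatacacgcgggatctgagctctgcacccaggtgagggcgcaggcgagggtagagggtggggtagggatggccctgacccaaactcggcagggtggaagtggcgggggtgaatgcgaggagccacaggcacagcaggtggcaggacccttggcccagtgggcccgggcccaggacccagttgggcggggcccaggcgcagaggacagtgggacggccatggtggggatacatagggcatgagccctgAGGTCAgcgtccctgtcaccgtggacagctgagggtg
AGGTCA was found on either strand in the windows of Plin2, Plin5 and Abhd5 (4 of 11 windows of the set), against 16.3% of 32851 windows of all genes. In Plin2 it begins 218 bases before the start, and in Plin5 170 bases before the upstream start and 13 bases after the downstream start. The direct repeat AGGTCANAGGTCA, a form bound by PPARA with its partner RXR, was in 0 of the 11 windows and in 0.0396% of all windows. An exact match is so rare that its absence from these windows says nothing about PPARA binding. CACGTG was in the Plin2 window alone, beginning 4 bases before the start, against 7.15% of all windows. These are matches of letters, and they overlap no other searched motif.

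Plin3 and Plin4 did not differ detectably. Plin3 encodes a coat that is cytosolic until it joins new droplets, and its log2 expression was 5.77, 5.72 and 5.41 in the knockout arrays, against 5.58, 5.75 and 5.81 in the control arrays. The groups overlapped, and the difference of -0.079 (SE 0.15, limma adjusted p = 0.881) turned to 0.031 without knockout replicate 3. Plin4, a coat known mainly from fat and muscle, was dim, at 2.67, 3.73 and 3.64 in the knockout arrays, against 3.60, 3.28 and 3.92 in the control arrays. Its difference of -0.25 (SE 0.28, 95% interval -0.89 to 0.38, adjusted p = 0.786) came from knockout replicate 1 and was 0.086 without it. Plin4 and Plin5 are neighbours on chromosome 17 of GRCm38.p6 (Plin4 at 56100587 to 56109948, Plin5 at 56111597 to 56117606), 1649 bases apart.

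Cidec, which encodes the protein that lets droplets fuse into large ones, had the largest difference in the set and also the largest spread. Its log2 expression was 4.31, 5.13 and 3.38 in the knockout arrays, against 4.78, 6.37 and 5.31 in the control arrays. Knockout replicate 2 lay above control replicate 1, so the groups overlapped. Standard deviations were 0.876 in the knockout and 0.808 in the control group, at percentiles 99.64 and 99.85 of all genes. The log2 difference was -1.22 (SE 0.47, 95% interval -2.28 to -0.16, limma adjusted p = 0.413), or 2.33-fold lower in the knockout. It was -0.77 without knockout replicate 3 and -0.78 without control replicate 2. The other way, it was -1.65 without knockout replicate 2 and -1.57 without control replicate 1.

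Cidea, a brown fat gene of the same family, lay near the median of all probe sets (3.14) in both groups. Its log2 expression was 2.93, 3.68 and 3.43 in the knockout arrays, against 3.44, 3.23 and 3.10 in the control arrays. The groups overlapped, the difference was 0.091 (SE 0.20, limma adjusted p = 0.901), and it was -0.074 without knockout replicate 2. At this dim level a modest change could hardly be seen.

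The lipase and its 2 protein partners did not differ detectably. Pnpla2 was at 8.09, 8.12 and 7.50 in the knockout arrays, against 7.61, 7.92 and 7.62 in the control arrays. Knockout replicates 1 and 2 lay above every control and knockout replicate 3 below every control. The difference was 0.19 (SE 0.19, 95% interval -0.24 to 0.61, limma adjusted p = 0.764), and 0.39 without knockout replicate 3 (adjusted p = 0.372).

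G0s2, the inhibitor, was at 6.99, 6.65 and 6.03 in the knockout arrays, against 6.75, 6.34 and 7.03 in the control arrays. The groups overlapped, and the difference was -0.15 (SE 0.26, 95% interval -0.73 to 0.43, limma adjusted p = 0.867). It was 0.11 without knockout replicate 3 and 0.0094 without control replicate 3. The dimmer probe set of G0s2 gave 4.11, 4.11 and 3.52 in the knockout arrays, against 4.22, 4.31 and 4.24 in the control arrays, with every knockout array below the controls and a difference of -0.34 (adjusted p = 0.541).

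Abhd5, the activator, had the smallest spread of the set in the knockout arrays (SD 0.141), at 5.04, 5.33 and 5.20 in the knockout arrays, against 5.27, 5.40 and 5.19 in the control arrays. Its difference was -0.094 (SE 0.14, limma adjusted p = 0.841), and the 95% interval of -0.40 to 0.21 spans a 0.759- to 1.16-fold ratio. The log2 ratio of Pnpla2 to G0s2, relative to the control mean, was 0.088, 0.46 and 0.47 in the knockout arrays, against -0.15, 0.57 and -0.42 in the controls. Its mean difference of 0.34 gave p = 0.4 in the exact 2-sided permutation test, where 0.1 is again the smallest p possible.

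**Figure D2:**
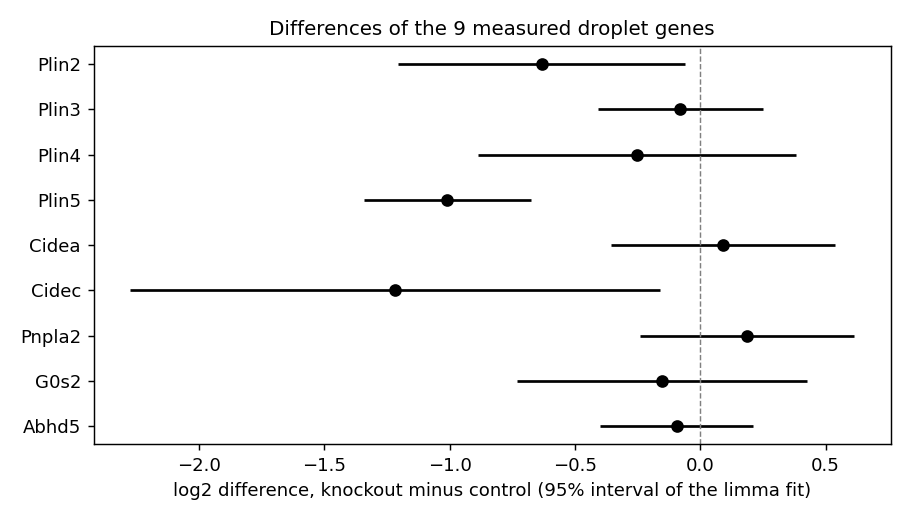
Log2 difference, knockout minus control, of the 9 measured genes, with the 95% interval of the limma fit as a horizontal line. The intervals of Plin5 (-1.34 to -0.68), Cidec (-2.28 to -0.16) and Plin2 (-1.20 to -0.060) lie below 0, and those of the other 6 genes include 0.

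Knockout replicate 3 was the lowest of all 6 arrays in 6 of 9 genes (Plin2, Plin3, Plin5, Cidec, Pnpla2 and G0s2), while it was the lowest in 18.6% of all genes. Knockout replicate 1 was the lowest in the other 3 (Plin4, Cidea and Abhd5), against 20.95% of all genes. No control array was the lowest for any gene of the set, while single controls were the lowest in 13.75% to 15.05% of all genes. Control replicate 3 was the highest array in 4 genes, against 13.42% of all genes. Over the 6 arrays 24 of the 36 pairs of genes had a positive Pearson correlation and 12 a negative one, with a median of 0.31. The highest was 0.83, between Plin2 and Cidec, and the lowest -0.55, between Plin4 and Pnpla2. Plin2, Plin5 and Cidec correlated with each other at 0.72 to 0.83. Plin3, which did not differ detectably, correlated with G0s2 at 0.73, with Plin2 at 0.72 and with Cidec at 0.71. These are descriptions over 6 arrays that share the group difference. The 5 genes most like Plin5 over the 6 arrays were Gkn1, Hnrnph2, Fam102b, Cyp2j5 and BC005624, with Pearson correlations of 0.988 to 0.996.

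Further genes that hydrolyse lipid or assist lipases had a median difference of -0.14 (-0.088 without knockout replicate 3). Of 12 measured, 9 differences were negative and 3 positive. At an unadjusted p under 0.05, 2 were lower and 0 higher, against 5.46% and 5.06% of all genes. Ddhd2, a phospholipase gene also active on triglyceride, was at 4.08, 4.86 and 4.54 in the knockout arrays, against 5.24, 5.42 and 5.26 in the control arrays (difference -0.82, limma adjusted p = 0.248). Ldah, encoding a droplet-bound hydrolase, differed by -0.42 (adjusted p = 0.347), Abhd6, a monoacylglycerol lipase gene, by -0.43 (0.494) and Pnpla8, a phospholipase gene, by -0.22 (0.583). All knockout arrays lay below all controls in these 4 genes, which were named for their large statistics, and in 5 of the 12 measured, against 9.14% of all genes. The hormone-sensitive lipase gene Lipe, at 0.23 (0.690), and the monoglyceride lipase gene Mgll, at -0.21 (0.743), are named outside the naming rule.

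Triglyceride synthesis and droplet formation genes had a median of -0.16, with 11 of 16 measured differences negative. Of these 16, 3 were lower and 1 higher at an unadjusted p under 0.05, against 5.46% and 5.06% of all genes. The median was -0.030 without control replicate 2 and -0.045 without knockout replicate 3. The lipin gene Lpin2, whose product makes diacylglycerol from phosphatidate, was at 8.14, 8.07 and 7.66 in the knockout arrays, against 8.53, 9.13 and 8.70 in the control arrays (difference -0.83, limma adjusted p = 0.246). Its relative Lpin1 differed by -0.77 (adjusted p = 0.423) with overlapping groups, in which control replicate 2 stood high at 8.98. The glycerol phosphate acyltransferase gene Gpam differed by -0.38 (0.398). Tmem159, a partner of seipin in droplet assembly, was higher by 0.31 (0.448). The acyltransferase gene Dgat2, which completes triglyceride and is named outside the rule, differed by 0.055 (0.914).

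Other droplet-associated proteins had 15 of 18 differences negative and a median of -0.11. Of these 18, 3 were lower and 0 higher at an unadjusted p under 0.05, against 5.46% and 5.06% of all genes. The hydroxysteroid dehydrogenase gene Hsd17b11 was at 8.31, 8.44 and 7.56 in the knockout arrays, against 8.89, 8.65 and 8.59 in the control arrays (difference -0.61, limma adjusted p = 0.398). Its liver-enriched relative Hsd17b13 differed by -0.33 (0.475), Ubxn4, of endoplasmic reticulum protein degradation, by -0.39 (0.375) and Mettl7b by -0.27 (0.494). Knockout replicate 3 was the lowest array for Hsd17b11 and Mettl7b, and knockout replicate 1 for Hsd17b13 and Ubxn4. The mean log2 level of these 18 genes was 6.69, 6.89 and 6.86 in knockout replicates 1 to 3, so it was lowest in knockout replicate 1. Genes of very low density lipoprotein assembly had a median of -0.15 with 5 of 9 negative, and the median was -0.076 without knockout replicate 3 and -0.090 without control replicate 2. Among them Sar1b, of vesicle export, differed by -0.38 (0.390), the lipid transfer gene Mttp by -0.27 (0.563), Mia2 by -0.18 (0.644) and Arf1 by 0.21 (0.605).

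**Figure D3:**
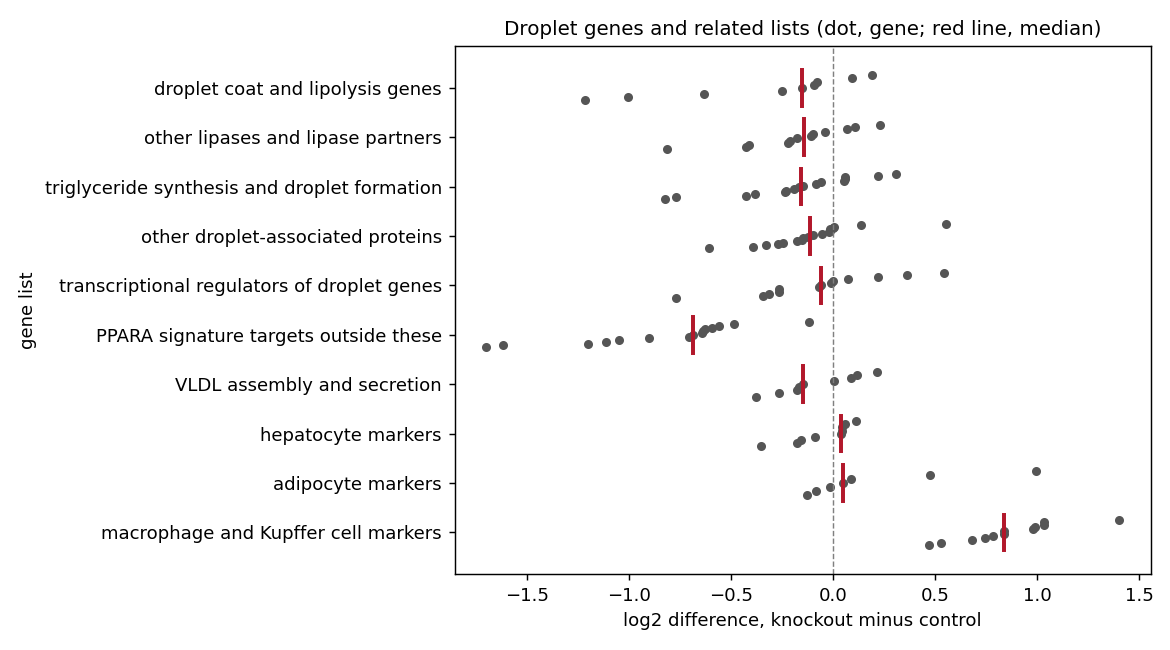
Log2 difference, knockout minus control, of each gene (dot) in the droplet set and in related lists, with the median as a red line. The droplet set and the lists of lipases, triglyceride synthesis and droplet proteins have medians between -0.16 and -0.11, the other PPARA targets lie at a median of -0.69, and the macrophage markers at 0.84.

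PPARA signature targets outside the set had a lower median difference than the droplet genes, -0.69 against -0.15, a contrast that was not tested. Of 15 measured, 15 had negative differences, and 14 were lower at an unadjusted p under 0.05, against 5.46% of all genes. Retsat, the retinol saturase gene, was at 9.63, 9.80 and 9.49 in the knockout arrays, against 10.64, 10.78 and 10.65 in the control arrays. Plin5 resembled it in size, at -1.01 against -1.05 for Retsat, and in groups far apart. Acot1, an acyl-CoA thioesterase gene, was at 6.61, 6.61 and 5.63 in the knockout arrays, against 7.79, 7.88 and 8.27 in the control arrays. The peroxisome gene Pex11a differed by -0.90 and the thiolase gene Acaa1b by -1.20. As with Plin2 and Cidec, knockout replicate 3 was the lowest array for Acot1 and Acaa1b, while for Pex11a it was the highest of the 3 knockout arrays. The list was drawn up with earlier results of these arrays known, so its direction is not independent evidence.

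**Figure D4:**
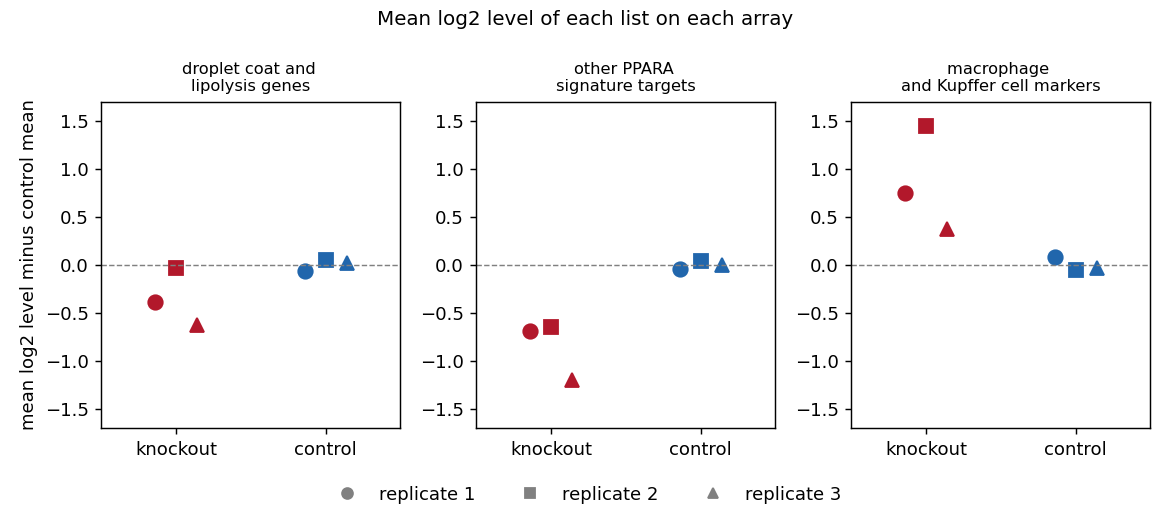
Mean log2 level of 3 gene lists on each array, minus the mean of the 3 control arrays, with knockout (red) left of control (blue) and a marker shape for each replicate number. Knockout replicate 3 is the lowest knockout array in all 3 panels, and the control arrays stay close to 0.

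The mean log2 level of the 9 droplet genes was 5.69, 6.04 and 5.45 in knockout replicates 1 to 3, against 6.01, 6.13 and 6.10 in the controls. For the other PPARA targets it was 8.50, 8.54 and 7.99 in the knockout arrays, against 9.14, 9.23 and 9.19 in the controls. Both means were lowest in knockout replicate 3, and the droplet genes of knockout replicate 2 came close to the controls while its other PPARA targets did not.

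Genes of transcription factors and cofactors that act on droplet genes had 9 of 13 differences negative and a median of -0.061. At an unadjusted p under 0.05, 2 were lower, Lpin1 and Creb3l3, and 1 higher, Srebf1, against 5.46% and 5.06% of all genes. Lpin1 is also counted among the triglyceride synthesis genes. The median ranged from -0.12 without knockout replicate 1 to -0.037 without control replicate 2. Ppara itself was at 7.17, 7.01 and 7.07 in the knockout arrays, against 7.47, 7.31 and 7.27 in the control arrays. All knockout arrays lay below the controls, with a difference of -0.26 (limma adjusted p = 0.507). Creb3l3, a liver factor that acts with PPARA, differed by -0.35 (0.439) and the lipogenic factor gene Srebf1 by 0.54 (0.429). Pparg, the adipogenic receptor known to act on Cidec, is named outside the rule and was at 5.37, 5.97 and 5.23 in the knockout arrays, against 5.30, 4.73 and 5.44 in the control arrays, which overlap. Knockout replicate 2 was the highest array for Pparg and the highest knockout array for Cidec. Control replicate 2 was the lowest array for Pparg and the highest for Cidec. A link between Pparg and Cidec was not tested.

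Markers of hepatocytes, the cells that hold most liver droplets, differed little. Of 9 measured, 4 differences were negative and 5 positive, with a median of 0.037 (-0.15 without control replicate 3), and the summed linear level ranged from 28164 to 29716 in the knockout, against 29119 to 29315 in the control arrays. Hnf4a, a hepatocyte factor gene, was the only one at an unadjusted p under 0.05 (-0.36, limma adjusted p = 0.399). Macrophage and Kupffer cell markers had positive differences in 12 of 12, with a median of 0.84. All 12 were higher at an unadjusted p under 0.05, against 5.06% of all genes. Their summed level ranged from 919 to 2116 in the knockout, against 682 to 736 in the control arrays, and 0 of 12 were at or under the median of all probe sets on every array. Their mean log2 level was 6.44, 7.14 and 6.07 in knockout replicates 1 to 3, so the array lowest in Plin2 and Cidec was also the lowest knockout array in these markers. Cd68 differed by 0.98 (0.266), Marco by 0.74 (0.249), C1qa by 0.84 (0.221) and Cd5l by 1.40 (0.272). The part of these cells in the droplet gene values was not tested.

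Of 7 measured adipocyte markers, Adipoq, Lep, Adig and Ucp1 lay at or under the median of all probe sets on all 6 arrays, and the summed level ranged from 81.4 to 154 in the knockout, against 62.9 to 72.4 in the control arrays. That range followed Fabp4, which macrophages also express, at 5.71, 6.89 and 5.42 in the knockout arrays, against 5.08, 5.21 and 4.76 in the control arrays (difference 0.99, limma adjusted p = 0.363). Among lipid-associated macrophage markers the lipoprotein lipase gene Lpl differed by 1.48 (0.0902) and Lgals3 by 0.40 (0.466). Trem2, at -0.22 (0.650), and Cd9, at -0.23 (0.638), were negative and are named outside the rule. The list was positive in 5 of 7 with a median of 0.31, which was 0.12 without knockout replicate 1 and 0.18 without control replicate 1. Stellate cell markers, of the cells that store retinyl ester in droplets, had 10 of 10 positive differences with a median of 0.13, and Ecm1 differed by 0.54 (0.429). Their mean log2 level was 5.67, 6.37 and 5.71 in knockout replicates 1 to 3, against 5.84, 5.58 and 5.62 in the controls, so only knockout replicate 2 lay above the control range. Without it the median was -0.016, and with other single arrays left out it reached 0.30. Their summed level ranged from 909 to 1790 in the knockout, against 823 to 1003 in the control arrays. Endothelial markers were positive in 7 of 8 with a median of 0.22, led by Lyve1 at 0.92 (0.178), and their summed level ranged from 840 to 1422 in the knockout, against 808 to 833 in the control arrays. The median was -0.018 without knockout replicate 2 and 0.35 without knockout replicate 1. Neutrophil markers were positive in 7 of 8 with a median of 0.27, and a summed level of 60.9 to 66.9 in the knockout, against 53.1 to 56.3 in the control arrays, with 5 of the 8 at or under the median of all probe sets on every array. Cholangiocyte markers were positive in 3 of 5 with a median of 0.10, which ranged from -0.069 to 0.14 with single arrays left out. The part of these cell types in the droplet gene values was not tested either.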

How the data were processed

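Per the submitters' processing notes, the authors used Affymetrix Expression Console 1.4.1 and RMA, which corrects background, forces the arrays onto 1 distribution and gives a value per probe set. The deposited table holds the resulting log2 expression values of 41345 probe sets on 6 arrays, and per the labels biotinylated cRNA of total liver RNA was hybridised. Such values cannot show a change shared by most transcripts, and the number of arrays limits the precision.

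Of the probe sets, 23521 had 1 gene symbol in the platform annotation, 1814 several and 16010 none, and the brightest probe set of each gene left 22180 genes. The comparison was knockout minus control in limma 3.58.1 (lmFit, then eBayes; R 4.3.3, statmod 1.5.0), 2-sided, with Benjamini-Hochberg adjustment over all genes and a threshold of 0.05. Groups came from the sample titles. The test was tested on simulated data of 22180 genes, where 66% of 100 genes shifted by 1 log2 unit and 97% of 100 shifted by 2 were recovered, with 7 calls among unshifted genes. These shares need not hold for the arrays themselves, where 0 genes passed. Plin5 at -1.01 (limma adjusted p = 0.0902) and Acot1 at -1.70 (0.117) did not pass, and whether they truly differ is not known. Alternatives were a filter on dim probe sets (above 3.14 on at least 3 arrays), median centring, renewed quantile normalization, an intensity trend, a robust prior, the replicate block, the dimmer probe set and each array left out.

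The genes and the 14 further lists (149 of 158 entries matched) were chosen with earlier results of these data known. Of each list up to 4 genes with the largest moderated statistic are named, others as stated. The correlation of deviations was 0.0064, 0.053 and 0.015 between same-numbered arrays, and -0.0455 to 0.0293 between differently numbered ones. With 3 arrays in each group this check cannot exclude a pairing, and the main fit assumed none.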

Additional observations from a re-analysis of the deposited data

How the results depend on the processing

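Plin2, Plin5, Cidec, Pnpla2 and Abhd5 kept their direction under all 13 alternatives. Plin5 ranged from -1.11 to -0.91, with adjusted p-values from 0.0335 to 0.456, and was at an unadjusted p under 0.05 in all of them. Under a variance prior with an intensity trend, 1 gene of the set, Plin5, passed an adjusted p of 0.05. With 1 array left out, 1 to 3 genes were lower at an unadjusted p under 0.05 and 0 to 1 higher. Plin5 alone remained without knockout replicate 1 and without control replicate 2, Plin5 with Cidec without control replicates 1 or 3, and Plin5 with Pnpla2 as higher without knockout replicate 3. Plin2 thus missed that level when any array other than knockout replicate 2 was left out. With arrays left out, Plin3 ranged from -0.15 to 0.031, Plin4 from -0.44 to 0.086, Cidea from -0.074 to 0.30 and G0s2 from -0.37 to 0.11. Medians of hepatocyte (-0.15 to 0.052), adipocyte (-0.021 to 0.076), cholangiocyte (-0.069 to 0.14), stellate cell (-0.016 to 0.30) and endothelial markers (-0.018 to 0.35) also changed sign there. Renewed quantile normalization gave a median of -0.060 for hepatocyte markers and 0.0069 for the transcriptional regulators. The median of the set ranged from -0.34 to -0.091. With the replicate block the same 3 genes were lower at an unadjusted p under 0.05, and the adjusted p of Plin5 was 0.172. With the dimmer G0s2 probe set the change of Pnpla2 over G0s2 was 0.53 (exact permutation p = 0.1, the smallest possible). The causes were not tested. Over all genes, the number past an adjusted p of 0.05 was 8 with the filter on dim probe sets, 25 with the trend, 1 with the replicate block, 66 without knockout replicate 3, 3 without control replicate 3 and 0 otherwise. Dim signal limits Plin4 and Cidea.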
